A study of Homo sapiens with 6 samples.

Results

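The SLC35 genes encode membrane carriers of the endoplasmic reticulum and Golgi, most of which exchange a nucleotide sugar from the cytosol for a nucleotide from the lumen. The members described here were chosen by gene symbol, SLC35 followed by a subfamily letter from A to G and a number. No measured value enters that rule, but the family was taken up with the fold changes of these libraries known, so its tests are not independent evidence. The deposited table held 30 of them among 20036 genes. The RNA came from KGN cells, an established human line of ovarian granulosa tumour origin that the labels give as wild type. All cells received small interfering RNA (siRNA) with Lipofectamine 3000 and were harvested 48 h later. The groups were siOGT1 and siOGT2, which are siRNAs against OGT mRNA, and siNC, the control siRNA, with 2 libraries each and 6 in all. OGT encodes the transferase that puts N-acetylglucosamine from UDP-N-acetylglucosamine onto nuclear and cytosolic proteins. No source used here says whether the 2 libraries of a group are separate cultures, so p-values measure the spread between these libraries, which may be technical.

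Glycosyltransferases and sulfotransferases of the secretory pathway work inside the lumen, whereas their activated donors are made in the cytosol or nucleus. SLC35 carriers bring those donors across the membrane, each with its own set of substrates: CMP-sialic acid (SLC35A1), UDP-galactose (SLC35A2), UDP-N-acetylglucosamine (SLC35A3), the sulfate donor PAPS (SLC35B2 and SLC35B3), GDP-fucose (SLC35C1) or UDP-glucuronic acid and UDP-N-acetylgalactosamine (SLC35D1). Ovarian granulosa cells secrete proteoglycans into follicular fluid, whose sugar chains need both UDP-glucuronic acid and PAPS. OGT itself works in the cytosol and nucleus and draws on the UDP-N-acetylglucosamine that has not been carried into the lumen.

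Levels are FPKM, the authors' value scaled to gene length and library size. Whole reads could be recovered from the FPKM steps, and library totals ran from 16756649 to 21416489 reads. OGT stood at 13.8 and 12.9 FPKM in the siOGT1 libraries and 14.3 and 14.7 in the siOGT2 libraries, against 22.4 and 23.4 FPKM in the siNC libraries. The groups did not overlap, and OGT was thus at 58.3% of the siNC mean with siOGT1 and 63.2% with siOGT2. OGA, the gene of the enzyme that removes the modification, averaged 60.4 ± 0.780 FPKM with siOGT1, 57.2 ± 0.708 with siOGT2 and 64.5 ± 0.516 with siNC (SD, n = 2). Of 13 granulosa markers, 8 had a mean of at least 1 FPKM, with NR5A1 at 19.3 and FOXL2 at 5.70, while every library listed FSHR at 0 and CYP19A1 had a mean of 0.00185. No leukocyte, endothelial, epithelial or theca and stromal marker on the lists reached a mean of 1 FPKM.

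The stretches of mRNA shown next hold GCTCTTA, a heptamer that was chosen because earlier results of these same libraries pointed to it, so its counts below are descriptions and no independent support. OGT mRNA held it once, in the coding sequence. Of the 22 SLC35 genes with a mean of at least 1 FPKM, 6 held it in the annotated 3′ UTR (27.3%), and SLC35B2 held it at 2 places. Of all 10492 tested genes with an annotated 3′ UTR, 1016 held it there (9.68%). Each line gives 29 bases of the mRNA, 5′ to 3′, with the heptamer in capitals, for every site in OGT and in the tested SLC35 genes (GENCODE release 29, GRCh38, coordinates of the window, only the sense strand of the mRNA searched).
OGT, chrX:71563363-71563391, plus strand, coding sequence: gcagtaacacaGCTCTTAatatgcctgtt
SLC35D1, chr1:67000816-67000844, minus strand, 3′ UTR: atagcaacacaGCTCTTAgaattctgtaa
SLC35B2, chr6:44255381-44255409, minus strand, 3′ UTR: gccaatacgaaGCTCTTAagttcgtcagc
SLC35B2, chr6:44254126-44254154, minus strand, 3′ UTR: tgtaactttttGCTCTTAtaattttattt
SLC35F5, chr2:113713337-113713365, minus strand, 3′ UTR: atgtgttctgtGCTCTTAtcatcacacag
SLC35F6, chr2:26780125-26780153, plus strand, 3′ UTR: cctgttttcctGCTCTTActctcacctct
SLC35C2, chr20:46346856-46346884, minus strand, 3′ UTR: atggagtttttGCTCTTAttgcccaggct
SLC35G1, chr10:93902959-93902987, plus strand, 3′ UTR: aatagcttccaGCTCTTActgtgtcagat
SLC35G2, chr3:136854804-136854832, plus strand, coding sequence: atggatgtgtaGCTCTTAtcactaggctt
SLC35A1, chr6:87500624-87500652, plus strand, coding sequence: tggctttcctaGCTCTTAgcaatctggat
SLC35D1, chr1:67020384-67020412, minus strand, coding sequence: agtataattctGCTCTTAcaactacaata
SLC35F5, chr2:113725495-113725523, minus strand, coding sequence: tttaatctgctGCTCTTAtggccaggttt
SLC35F5, chr2:113755303-113755478, minus strand, coding sequence across a splice junction: atctcagaaggGCTCTTAagacaagactg
The 3′ UTR site of SLC35D1 shared an unbroken run of 13 bases with the OGT site, through the heptamer. The first SLC35B2 site and the SLC35G1 site shared 9 bases each, the coding sites of SLC35G2 and SLC35A1 and the junction site of SLC35F5 shared 8 each, and the other sites in this list shared the heptamer alone.

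KGN cells carried most of the SLC35 family at moderate levels. With a mean of at least 1 FPKM over the 6 libraries, 22 of the 30 members were tested, and 8 fell below that minimum. In the siNC libraries SLC35F2, known to import the anticancer compound YM155, was highest at 27.1 ± 0.0129 FPKM. Below it came a group at closely similar levels: SLC35G2 at 21.8 ± 0.290, SLC35A4, a carrier of CDP-ribitol, at 21.6 ± 0.0997, SLC35A5 at 20.5 ± 0.683 and SLC35B2 at 19.8 ± 0.236 FPKM. SLC35G2 and SLC35A4 differed there by less than the SD of SLC35G2. SLC35F6 (18.6 ± 0.467) and SLC35B4 (17.7 ± 0.412), which carries UDP-xylose and UDP-N-acetylglucosamine in transport assays, followed. Some carriers with well known substrates were lower: SLC35A2 had 7.39 ± 0.0384 FPKM, SLC35C1 5.97 ± 0.0989, SLC35A1 3.71 ± 0.710 and SLC35A3 1.77 ± 0.137. SLC35B3 (13.9 ± 0.0457) and SLC35D1 (9.72 ± 0.359) lay between these and SLC35B4. FPKM depends on the gene length used, and the lengths implied by the read steps were 18235 bases for SLC35A3 and 23252 for SLC35E3, whose levels are low per length although they had at least 615 and 721 reads in every library.

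Summed over all 30 members, the family stood at 209.7 and 210.5 FPKM in the siOGT1 libraries and 243 and 241 in the siOGT2 libraries, against 232 and 235 FPKM in the siNC libraries. The siOGT1 libraries were lowest and the siOGT2 libraries highest, without overlap. In the plot of levels by library, most members keep close to the siNC level with both siRNAs, and SLC35B2 and SLC35D1 stand apart in the siOGT1 libraries.

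**Figure D1:**
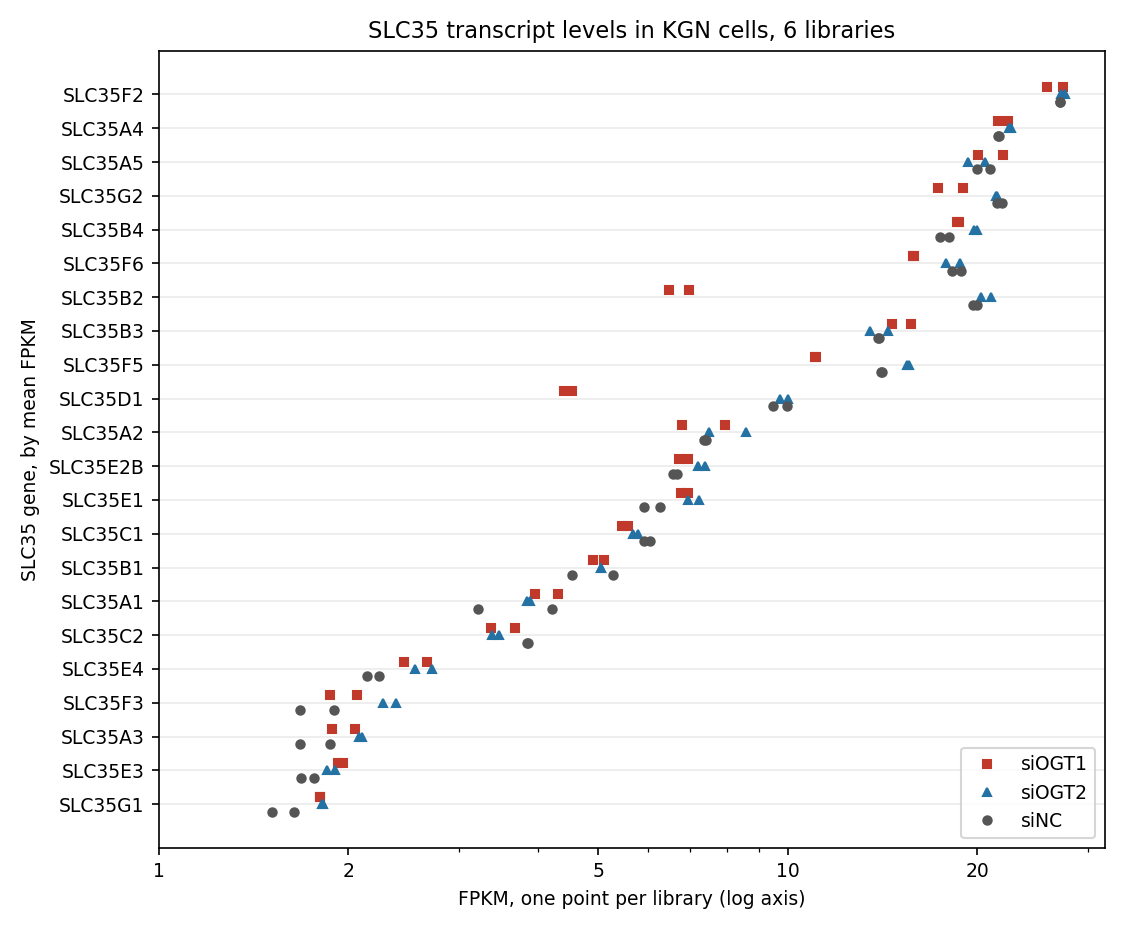
FPKM of the 22 tested SLC35 genes (horizontal, log axis) in each library: red squares siOGT1, blue triangles siOGT2, grey circles siNC, genes ordered by their mean over the 6 libraries. The siOGT1 points of SLC35B2 (6.97 and 6.46 FPKM) and SLC35D1 (4.41 and 4.53 FPKM) lie far left of the other libraries.

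The members under the minimum were SLC35D2, SLC35G6, SLC35G5, SLC35F4, SLC35D3, SLC35F1, SLC35G3 and SLC35G4. SLC35D2, a Golgi carrier of UDP-N-acetylglucosamine and UDP-glucose, had 33 and 37 reads in the siOGT1 libraries and 46 in each of the siOGT2 libraries, against 48 and 38 reads in the siNC libraries. Of the SLC35D2 exon bases, 46.8% also belong to another annotated gene on the same strand, so its level is uncertain. SLC35G6 had 5 to 13 reads per library, SLC35F4 3 to 9, and SLC35G5 2 to 4. SLC35D3 and SLC35F1 had at most 2 recovered reads and 1 recovered read in any library. Recovered reads are the smallest whole counts that match the FPKM values, so true counts of such low genes may be higher. For SLC35F1 the implied length was 2533 bases, whereas its GENCODE exons cover 4855. SLC35G3 and SLC35G4 were listed at 0 in all 6 libraries, where a count of 0 allows up to 3 reads each, by counting error only. SLC35G3 to SLC35G6 are near-identical copies of each other, and SLC35E2B has a near-identical copy, SLC35E2A, that was not analysed here, so the split of reads among such genes is uncertain.

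SLC35B2 and SLC35D1 fell with siOGT1 and kept near the siNC level with siOGT2. In such bulk RNA, fewer cells with a transcript and less of it per cell cannot be told apart. Differences in log2(FPKM + 1) were tested with limma (two-sided), and a gene was called where its p, adjusted by Benjamini-Hochberg for the 10547 genes with a mean of at least 1 FPKM, was under 0.05. With siOGT1 5 of 22 members were called, all lower, where 17.6% of all tested genes were called, 8.1% lower and 9.51% higher. Scaled by the trimmed mean of log ratios, 9.68% of all tested genes were lower and 5.09% higher, and the same number of members, 5, was called, all lower. Without that scaling, an unadjusted p under 0.05 with siOGT1 was reached by 8 members and by 3360 of the 10547 tested genes. The 5 were SLC35B2, SLC35D1, SLC35F5, SLC35G2 and SLC35F6. The same 5 members were called lower in the direct test of siOGT1 against siOGT2, where 8.24% of all tested genes were lower and 8.35% higher. That comparison shares the siOGT1 libraries with the first, so it is no independent repeat. The median log2 fold change with siOGT1 was 0.03 over the 22 members and 0.03 over all tested genes, so the falls were those of single members and the middle of the family lay at the level of all genes.

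SLC35B2 (ENSG00000157593, GRCh38 chromosome 6, 44254096 to 44257890, minus strand) is the main Golgi importer of PAPS, the donor for sulfation of heparan and chondroitin chains and of tyrosines. It had 6.97 and 6.46 FPKM in the siOGT1 libraries and 21.0 and 20.3 in the siOGT2 libraries, against 19.7 and 20.01 FPKM in the siNC libraries. Both siOGT1 libraries lay far below the other 4, and the siOGT2 libraries were slightly above the siNC libraries. In reads this was 303 and 327 with siOGT1 and 900 and 804 with siOGT2, against 937 and 951 with siNC. The level with siOGT1 was 33.8% of the siNC mean, lower than the 58.3% of OGT itself. This was a log2 fold change of -1.43 with siOGT1 (SE 0.0435, adjusted p = 1.04e-07), and with siOGT2 it was 0.06 (95% confidence interval -0.04 to 0.15, adjusted p = 0.352). Between the siRNAs, siOGT1 minus siOGT2, it was -1.49 (adjusted p = 8.78e-08).

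SLC35B3, the other PAPS carrier of the Golgi, was not called with either siRNA. It had 14.6 and 15.7 FPKM with siOGT1 and 14.4 and 13.5 with siOGT2, against 13.9 and 13.97 with siNC. The siOGT1 values were the highest of the 6, and the log2 fold change of 0.11 was not called (95% confidence interval 0.01 to 0.22, adjusted p = 0.131). Added together, the transcripts of both PAPS carriers came to 21.6 and 22.2 FPKM with siOGT1 and 35.5 and 33.8 with siOGT2, against 33.6 and 34.0 FPKM with siNC. By FPKM, SLC35B2 was the more abundant of the pair with siNC and siOGT2, and SLC35B3 with siOGT1. That order depends on the lengths implied by the read steps, 2363 bases for SLC35B2 and 3990 for SLC35B3, whose GENCODE exons cover 2828. In reads SLC35B3 was the higher in every library, with 1118 and 1121 against 937 and 951 in the siNC libraries.

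SLC35D1 (ENSG00000116704, chromosome 1, 66999332 to 67054099, minus strand) carries UDP-glucuronic acid and UDP-N-acetylgalactosamine into the endoplasmic reticulum and is required for chondroitin sulfate in cartilage. It had 4.41 and 4.53 FPKM in the siOGT1 libraries and 10.02 and 9.70 in the siOGT2 libraries, against 9.46 and 9.97 FPKM in the siNC libraries. The siOGT1 libraries were again well apart, and the siOGT2 and siNC values overlapped. The level with siOGT1 was 46.0% of the siNC mean, with 503 and 601 reads. On the log2 scale the change was -0.97 with siOGT1 (SE 0.0464, adjusted p = 3e-06), and with siOGT2 it was 0.02 (95% confidence interval -0.08 to 0.12, adjusted p = 0.766). The difference between the siRNAs was -0.99 (adjusted p = 2.83e-06). Its relative SLC35D2 was too low to test, and its level is uncertain because of the exon overlap given above. As listed, the sum of both carriers followed SLC35D1. It was 4.88 and 4.98 FPKM with siOGT1 and 10.7 and 10.4 with siOGT2, against 10.1 and 10.5 FPKM with siNC.

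**Figure D2:**
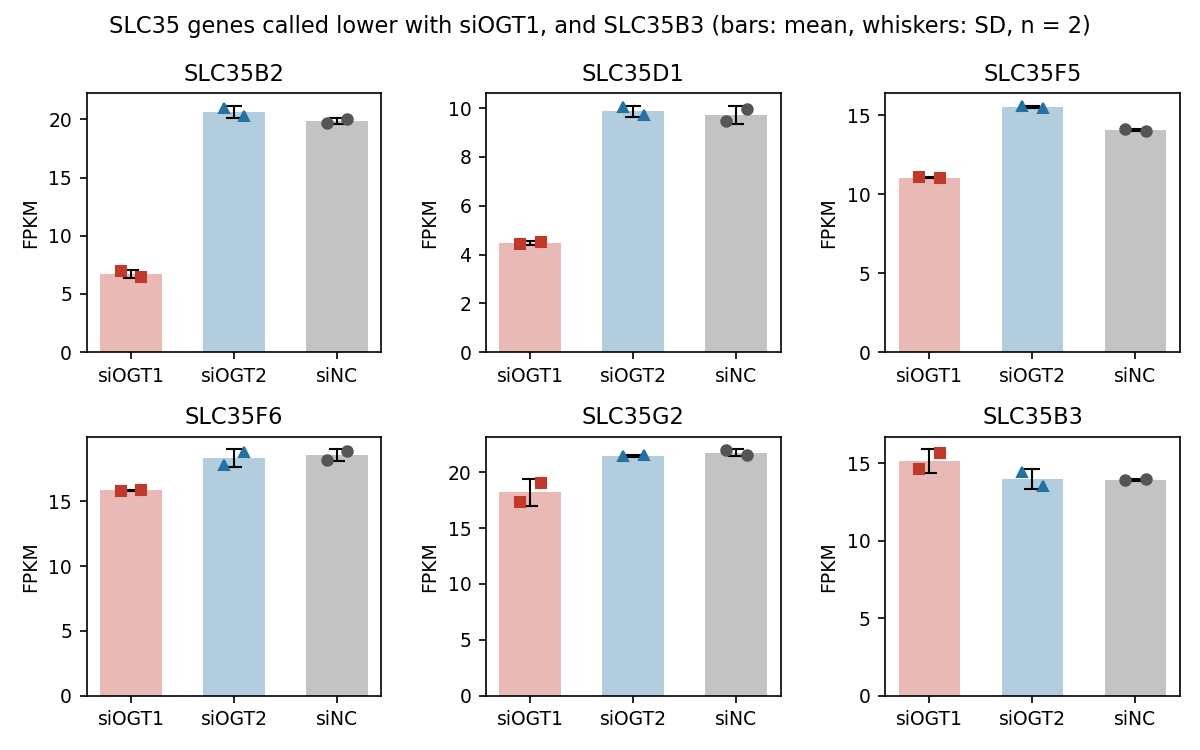
FPKM (vertical, from 0) of the 5 SLC35 genes called lower with siOGT1 and of SLC35B3, by group: bars are means, whiskers SD, points the 2 libraries of each group. SLC35B2 (6.97 and 6.46 FPKM) and SLC35D1 (4.41 and 4.53 FPKM) are far lower with siOGT1 than with siOGT2 or siNC, whereas SLC35B3 has its highest values there.

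SLC35F5, SLC35G2 and SLC35F6, whose substrates are not settled, fell by less. SLC35F5 (chromosome 2, 113705011 to 113756823) had 11.1 FPKM in both siOGT1 libraries and 15.6 and 15.5 in the siOGT2 libraries, against 14.1 and 14.05 FPKM in the siNC libraries. The 3 groups did not overlap, and SLC35F5 was lowest with siOGT1 and highest with siOGT2. Its log2 fold change was -0.32 with siOGT1 (SE 0.0362, adjusted p = 0.000339), 0.13 with siOGT2 (adjusted p = 0.0198) and -0.46 between the siRNAs (adjusted p = 5.67e-05). It was the sole member called in opposite directions by the siRNAs. The call with siOGT2 was lost when any 1 of the 4 siOGT2 or siNC libraries was left out, with log2 fold changes of 0.13 to 0.14 and adjusted p between 0.0703 (without siOGT2 replicate 2) and 0.089 (without siNC replicate 2). Under the trimmed mean of log ratios it was lost at 0.09 (adjusted p = 0.0924). The fall with siOGT1 was called under all 17 alternative settings.

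SLC35G2 (chromosome 3, 136818647 to 136855892) had 17.4 and 19.02 FPKM with siOGT1 and 21.4 and 21.5 with siOGT2, against 22.0 and 21.5 FPKM with siNC. Both siOGT1 values lay below the other 4 (log2 fold change -0.25 against siNC, adjusted p = 0.00496, and -0.23 against siOGT2, adjusted p = 0.00791). SLC35F6 (chromosome 2, 26764284 to 26781231) had 15.8 and 15.9 FPKM with siOGT1 and 17.8 and 18.8 with siOGT2, against 18.2 and 18.9 FPKM with siNC. It too was lowest in both siOGT1 libraries (log2 fold change -0.22, adjusted p = 0.00553, and -0.20 against siOGT2, adjusted p = 0.00903). The fall of SLC35F6 was not called without siNC replicate 2 (adjusted p = 0.0526). Against siOGT2, neither SLC35F6 (adjusted p = 0.0735) nor SLC35G2 (adjusted p = 0.0552) was called without siOGT2 replicate 2.

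**Figure D3:**
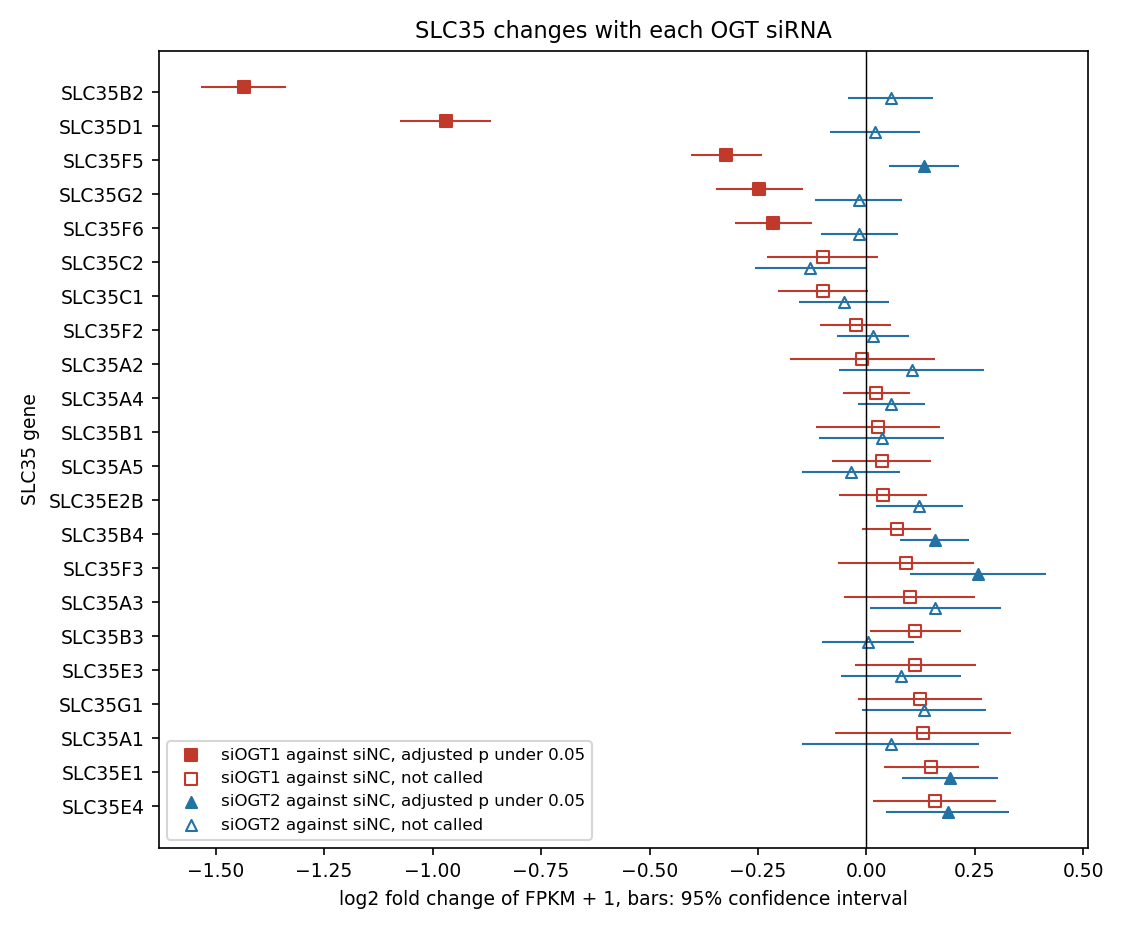
Log2 fold change of FPKM + 1 against siNC (horizontal, bars: 95% confidence interval from limma) for the 22 tested SLC35 genes, ordered by the change with siOGT1: red squares siOGT1, blue triangles siOGT2, filled where the adjusted p was under 0.05. SLC35B2 (-1.43) and SLC35D1 (-0.97) stand far to the left with siOGT1 and near 0 with siOGT2, and every other member lies between -0.32 and 0.26 with both siRNAs.

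With siOGT2, 5 of 22 members rose and none fell, where 35.5% of all tested genes were called, 22.1% higher and 13.4% lower. The share of members that rose, 22.7%, was close to that background. Scaled by the trimmed mean of log ratios, 13.5% of all tested genes were higher and 17.4% lower, and 3 members were called, all higher. Besides SLC35F5 they were SLC35B4, SLC35E1, SLC35E4 and SLC35F3. SLC35B4 had 18.8 and 18.6 FPKM with siOGT1 and 20.001 and 19.8 with siOGT2, against 17.4 and 18.02 FPKM with siNC. It was highest in both siOGT2 libraries (log2 fold change 0.16, adjusted p = 0.00841). SLC35E1, an orphan carrier, had 6.77 and 6.93 FPKM with siOGT1 and 7.24 and 6.95 with siOGT2, against 6.27 and 5.90 FPKM with siNC. All 4 siOGT libraries lay above both siNC libraries, and the change was called with siOGT2 (0.19, adjusted p = 0.0144) but not with siOGT1 (0.15, adjusted p = 0.0652). The direct test of siOGT1 against siOGT2 did not call SLC35E1 (-0.04, 95% confidence interval -0.15 to 0.07).

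SLC35E4, also an orphan, had 2.45 and 2.67 FPKM with siOGT1 and 2.55 and 2.72 with siOGT2, against 2.24 and 2.14 FPKM with siNC. It too was higher in all 4 siOGT libraries, with a call for siOGT2 alone (0.19, adjusted p = 0.0441, and 0.16 with siOGT1, adjusted p = 0.118). The exons of SLC35E4 overlap those of DUSP18 on the opposite strand over 27.7% of their bases, and the sources used here do not say whether strand was used in counting. SLC35F3, reported to carry thiamine, had 2.06 and 1.87 FPKM with siOGT1 and 2.39 and 2.27 with siOGT2, against 1.90 and 1.67 FPKM with siNC. Its siOGT2 values were the highest of the 6 (0.26, adjusted p = 0.0198). Each of these 4 calls was lost without 1 or more single libraries: SLC35B4 without siNC replicate 1 (adjusted p = 0.0638), SLC35E1 without siNC replicate 2 (adjusted p = 0.0957) or siOGT2 replicate 1 (adjusted p = 0.0787), SLC35F3 without siNC replicate 2 (adjusted p = 0.125) or either siOGT2 library (0.0912 and 0.0574), and SLC35E4 without any 1 of the siNC or siOGT2 libraries (0.0728 to 0.191). The call of SLC35E4 was also lost with the replicate block (adjusted p = 0.0538), equal FPKM sums (0.0615), quantile normalization (0.0752), the trimmed mean of log ratios (0.0895) and no filter on low values (0.101), so under 9 of 16 alternatives.

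No member was called with both siRNAs in the same direction, where 12.4% of all tested genes were. In the mean of both siRNAs against siNC, 8 of 22 members were called beside 31.1% of all tested genes, 3 higher (SLC35B4, SLC35E1 and SLC35E4) and 5 lower (the 5 of siOGT1), where 19.4% of all tested genes were higher and 11.8% lower. Without an intensity trend in the variance model the split was 5 higher and 2 lower (SLC35B2 and SLC35D1). There 1765 of the 10547 tested genes were higher and 1153 lower. With the trimmed mean of log ratios the split was 1 higher and 5 lower, where 10.7% of all tested genes were higher and 15.5% lower. The 5 lower members had their low values in the siOGT1 libraries. When the 4 siOGT libraries were fitted in limma as 1 group, which puts the difference between the siRNAs into the spread, no member was called in this comparison. In the fit with 3 groups 11 of 22 members had an unadjusted p under 0.05, as did 4476 of the 10547 tested genes.

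SLC35A1, SLC35A2 and SLC35A3, which carry sugars that cap and branch glycans, were not called with either siRNA. SLC35B4, which also carries UDP-N-acetylglucosamine in transport assays, was called higher with siOGT2, as given above. SLC35A1, for CMP-sialic acid, had 4.30 and 3.96 FPKM with siOGT1 and 3.85 and 3.89 with siOGT2, against 3.21 and 4.21 FPKM with siNC. The siNC libraries enclosed nearly all other values, so the interval is wide (0.13 with siOGT1, 95% confidence interval -0.07 to 0.33), and without siNC replicate 2 the value was 0.28 (adjusted p = 0.0462). Of its exons, 55.5% of the bases also belong to another annotated gene on the same strand. SLC35A2, for UDP-galactose, had 7.93 and 6.78 FPKM with siOGT1 and 7.4995 and 8.57 with siOGT2, against 7.37 and 7.42 FPKM with siNC (-0.01 with siOGT1, interval -0.18 to 0.16, and 0.10 with siOGT2, interval -0.06 to 0.27). SLC35A3, for UDP-N-acetylglucosamine, the donor that OGT also uses, had 1.89 and 2.05 FPKM with siOGT1 and 2.10 and 2.08 with siOGT2, against 1.67 and 1.87 FPKM with siNC. Its 4 siOGT values were above both siNC values, and neither siRNA passed (0.10, adjusted p = 0.345, with siOGT1 and 0.16, adjusted p = 0.0929, with siOGT2).

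SLC35C1, the GDP-fucose carrier that is mutated in leukocyte adhesion deficiency with impaired fucosylation, had 5.57 and 5.45 FPKM with siOGT1 and 5.68 and 5.78 with siOGT2, against 5.90 and 6.04 FPKM with siNC. All 4 siOGT values were below both siNC values, but neither change passed (-0.10, adjusted p = 0.173, and -0.05, adjusted p = 0.418). SLC35C2, its relative, had 3.69 and 3.37 FPKM with siOGT1 and 3.48 and 3.39 with siOGT2, against 3.86 and 3.84 FPKM with siNC. Its 4 siOGT values were also below both siNC values without passing (-0.10, adjusted p = 0.259, and -0.13, adjusted p = 0.105). The share of all tested genes with that order was not counted. SLC35B1, which exchanges ATP for ADP across the membrane of the endoplasmic reticulum, averaged 5.004 ± 0.134 FPKM with siOGT1 and 5.04 ± 0.00257 with siOGT2, against 4.91 ± 0.523 with siNC. The spread of its siNC libraries exceeded both differences. Of the abundant members, SLC35F2 averaged 26.6 ± 1.06 FPKM with siOGT1 and 27.4 ± 0.310 with siOGT2, against 27.1 ± 0.0129 with siNC, and its intervals, -0.11 to 0.06 and -0.07 to 0.10, bound any change. SLC35A4 (0.02 and 0.06) and SLC35A5 (0.04 and -0.04) were likewise not called with siOGT1 or siOGT2.

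The remaining tested members, SLC35E2B, SLC35E3 and SLC35G1, were higher in all 4 siOGT libraries than in both siNC libraries without being called. The share of all tested genes with that order was not counted, and their median log2 fold change was above 0 with siOGT1 (0.03) and siOGT2 (0.05). SLC35G1, a partner of the calcium sensor STIM1, had 1.81 FPKM in both siOGT1 libraries and 1.83 and 1.82 with siOGT2, against 1.51 and 1.64 FPKM with siNC (0.12, adjusted p = 0.214, and 0.13, adjusted p = 0.134). SLC35E3 had a log2 fold change of 0.11 (adjusted p = 0.244) with siOGT1 and 0.08 (adjusted p = 0.342) with siOGT2. For SLC35E2B it was 0.04 (adjusted p = 0.605) with siOGT1 and 0.12 (adjusted p = 0.0603) with siOGT2.

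Enzymes that make the PAPS and UDP-glucuronic acid carried by SLC35B2 and SLC35D1, namely PAPSS1, PAPSS2 and UGDH, rose with both siRNAs. Of 30 tested genes of nucleotide sugar and PAPS synthesis, 7 rose (23.3%, beside 9.51% of all tested genes) and 1 fell (3.33%, beside 8.1%) with siOGT1. With siOGT2 9 rose (30%, beside 22.1%) and 2 fell (6.67%, beside 13.4%). Their median log2 fold change was 0.07 with siOGT1 and 0.06 with siOGT2, beside 0.03 and 0.05 over all tested genes. PAPSS2, a PAPS synthase, had 29.1 and 27.2 FPKM with siOGT1 and 30.5 and 30.1 with siOGT2, against 21.9 and 24.2 FPKM with siNC (adjusted p = 0.0046 with siOGT1 and 0.0005 with siOGT2). PAPSS1, the other synthase, had 20.7 and 19.97 FPKM with siOGT1 and 21.5 and 20.9 with siOGT2, against 18.8 and 17.2 FPKM with siNC (adjusted p = 0.0316 and 0.00502). UGDH, which makes UDP-glucuronic acid, had 48.7 and 47.1 FPKM with siOGT1 and 48.5 and 49.03 with siOGT2, against 41.8 and 41.6 FPKM with siNC (adjusted p = 0.00267 and 0.000823). CMAS, which activates sialic acid, rose as well, to 113% of the siNC mean with siOGT1 and 116% with siOGT2. Each of these 4 enzymes was higher in all 4 siOGT libraries than in both siNC libraries, an order whose share among all tested genes was not counted. They were named for the smallest p of the list in the mean of both siRNAs against siNC, a choice that favours this order. With siOGT1 the call of PAPSS1 was lost without either siOGT1 library or siNC replicate 2 (adjusted p up to 0.201), and that of CMAS without siOGT1 replicate 1 or either siNC library (up to 0.0806). The call of PAPSS1 with siOGT1 was also lost under the trimmed mean of log ratios (adjusted p = 0.0884). Under that scaling 4 of the 30 genes of the list rose with siOGT1 and 6 with siOGT2. Of all tested genes 5.09% then rose with siOGT1 and 13.5% with siOGT2.

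**Figure D4:**
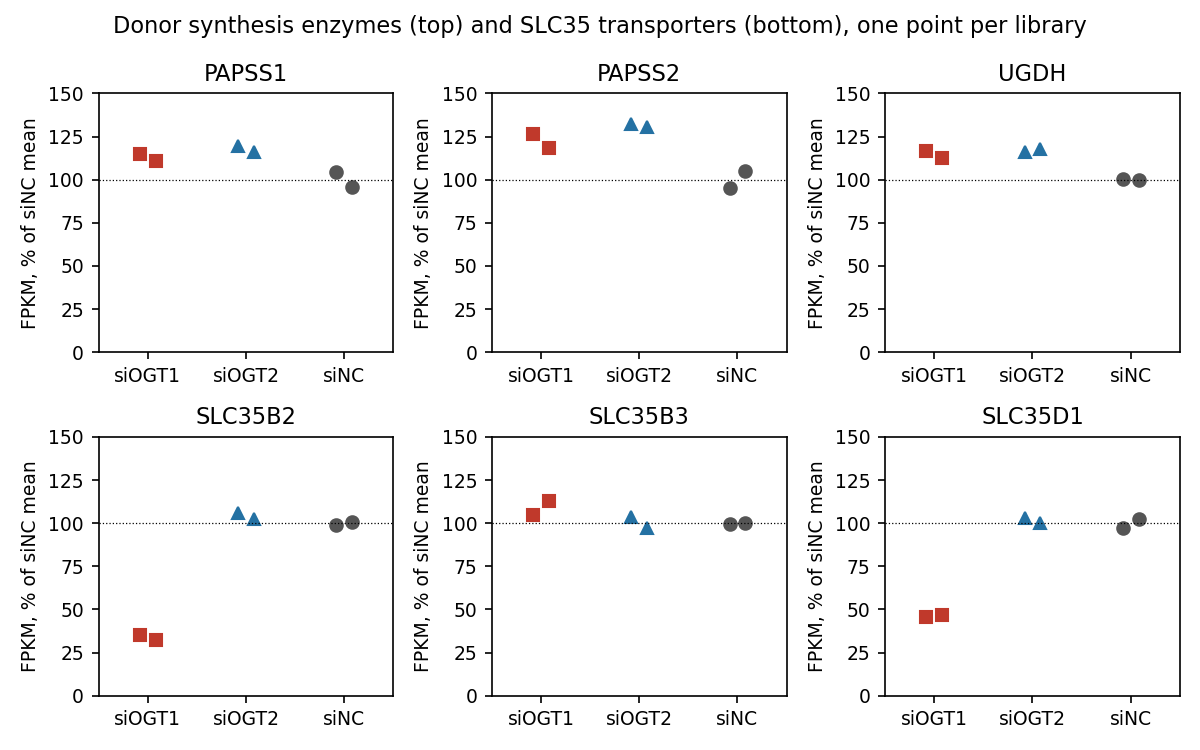
FPKM as a percentage of the siNC mean (vertical, from 0) for PAPSS1, PAPSS2 and UGDH, which make PAPS and UDP-glucuronic acid (top), and for SLC35B2, SLC35B3 and SLC35D1, which carry them (bottom), 1 point per library. The enzymes are above 100% in all siOGT1 and siOGT2 libraries, and SLC35B2 and SLC35D1 are below 50% in the siOGT1 libraries only.

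Among the enzymes that use the carried donors, 4 of 26 genes of proteoglycan chains and sulfation rose (15.4%) and 1 fell (3.85%) with siOGT1. Of all tested genes 9.51% rose and 8.1% fell with siOGT1. With siOGT2 6 of the 26 rose (23.1%), close to the 22.1% of all tested genes, and none fell, beside 13.4%. Under the trimmed mean of log ratios 5 rose and 3 fell with siOGT2, beside 13.5% and 17.4% of all tested genes. CHST3, which sulfates chondroitin, stood at 144% of the siNC mean with siOGT1 and 150% with siOGT2 (adjusted p = 1.3e-05 and 2.52e-06). DSE, the epimerase of dermatan sulfate, stood at 121% and 117%, HS2ST1, which sulfates heparan, at 115% and 126%, and CHST14, which sulfates dermatan, at 128% and 141%, and all 3 were called with each siRNA. With siOGT1 the call of HS2ST1 was lost without any 1 of the siOGT1 or siNC libraries (adjusted p up to 0.14), and that of CHST14 without siOGT1 replicate 2 or siNC replicate 1 (up to 0.125). HS2ST1 was also not called with siOGT1 under the trimmed mean of log ratios (adjusted p = 0.0664). Of 14 N-glycan enzymes of the Golgi, 1 rose and 1 fell (7.14% each) with siOGT1, close to the shares of all tested genes, and 5 rose (35.7%, beside 22.1%) with siOGT2. The one that rose with siOGT1 was B4GALT1, which uses the UDP-galactose carried by SLC35A2, at 153% of the siNC mean with siOGT1 and 158% with siOGT2. ST3GAL4, a sialyltransferase (116% with siOGT1 and 125% with siOGT2), and B4GALT2, a galactosyltransferase (99.5% and 123%), were called with siOGT2, and MGAT4B, a branching enzyme (108% and 110.4%), with neither. The call of ST3GAL4 was lost without siOGT2 replicate 1 or siNC replicate 2 (adjusted p up to 0.0605).

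Of 15 mucin-type O-glycan enzymes, 3 rose (20%) and 1 fell (6.67%) with siOGT1, and 5 rose (33.3%) and 3 fell (20%) with siOGT2. Of all tested genes 9.51% rose and 8.1% fell with siOGT1, and 22.1% rose and 13.4% fell with siOGT2. Under the trimmed mean of log ratios 1 of the 15 rose and 2 fell with siOGT1, and 3 rose and 3 fell with siOGT2. There 5.09% of all tested genes rose and 9.68% fell with siOGT1, and 13.5% rose and 17.4% fell with siOGT2. Of the enzymes that start such chains, GALNT3 fell with both, at 77.1% of the siNC mean with siOGT1 and 73.0% with siOGT2, and GALNT1 rose with both, at 116% and 120%. GALNT10, of the same kind (109% and 116%), was called higher with siOGT2, and GCNT2, a branching enzyme (98.0% and 74.6%), lower with siOGT2.

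Of the fucose, glucose and O-mannose enzymes, 1 of 19 rose and 1 fell (5.26% each) with siOGT1, and 2 rose (10.5%, beside 22.1% of all tested genes) and 3 fell (15.8%, beside 13.4%) with siOGT2. POFUT1, which adds fucose from GDP-fucose to Notch receptors, had 6.17 and 6.70 FPKM with siOGT1 and 10.6 and 11.3 with siOGT2, against 10.7 and 11.1 FPKM with siNC. Like SLC35B2 and SLC35D1 it was low in both siOGT1 libraries alone (log2 fold change -0.68, adjusted p = 3.61e-05, and -0.68 between the siRNAs, adjusted p = 4.53e-05). POMK, a kinase of O-mannose glycans, was low with siOGT2 instead, with 4.18 and 4.10 FPKM with siOGT1 and 3.09 and 3.10 with siOGT2, against 4.39 and 4.59 FPKM with siNC (log2 fold change -0.09, adjusted p = 0.247, with siOGT1 and -0.42, adjusted p = 0.000363, with siOGT2). POGLUT2, which adds glucose (130.2% with siOGT1 and 117% with siOGT2), rose with siOGT1, and POMGNT1, which extends O-mannose (108% and 125%), with siOGT2. The call of POGLUT2 was lost without siOGT1 replicate 1 or siNC replicate 1 (adjusted p up to 0.104), and that of POMGNT1 without siOGT2 replicate 2 or siNC replicate 1 (up to 0.0706). Of 10 genes for lumenal nucleotide products and ion exchange, 3 rose (30%) and 1 fell (10%) with siOGT1, and 2 rose (20%) with siOGT2. Of all tested genes 9.51% rose and 8.1% fell with siOGT1, and 22.1% rose with siOGT2. ENTPD4 and ENTPD6, which hydrolyse lumenal nucleotides, and SLC26A2, a sulfate transporter, rose with siOGT1, to 114%, 121% and 120% of the siNC mean, and each of these calls was lost without siOGT1 replicate 1 or siNC replicate 1, with adjusted p up to 0.217 for ENTPD4. Those of ENTPD4 and ENTPD6 were also lost without siOGT1 replicate 2, and that of ENTPD4 under quantile normalization (adjusted p = 0.0546) and the trimmed mean of log ratios (adjusted p = 0.0837). The gene that fell was TMEM165, needed for Golgi glycosylation, at 80.8% of the siNC mean with siOGT1 and 94.5% with siOGT2.

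All 5 members called lower with siOGT1 held the heptamer printed at the outset. Of them, SLC35B2, SLC35D1, SLC35F5 and SLC35F6 held it in the 3′ UTR and SLC35G2 in the coding sequence, and SLC35D1 and SLC35F5 held it in the coding sequence as well. Of the 22 tested members 8 held it anywhere in the mRNA, beside 14.9% of the 10492 tested genes with an annotated 3′ UTR. The 3 others were SLC35C2 and SLC35G1, with 1 site each in the 3′ UTR, and SLC35A1, with 1 in the coding sequence, and none of them was called. The 6 members with a 3′ UTR site had a median log2 fold change of -0.27 with siOGT1, from -1.43 for SLC35B2 to 0.12 for SLC35G1. The 16 without one had a median of 0.05, from -0.25 for SLC35G2 to 0.16. With siOGT2 the medians were 0.04 and 0.07. The 3′ UTRs of the 6 had a median length of 2573 bases and those of the 16 a median of 1606. The part of that length in these values was not tested.

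The counts over all tested genes describe the same libraries whose earlier results pointed to the heptamer, so they are no independent support. Of 9476 genes with no 3′ UTR site 5.9% were called lower with siOGT1, of 902 with 1 site 26.9%, and of 114 with at least 2 sites, the class of SLC35B2, 42.1%. With siOGT2 the shares lower were 13.1%, 15.4% and 18.4%. The 3′ UTRs differed in length, with medians of 1297, 3166 and 4505 bases in these classes, and their part in the shares was not tested. A run of at least 13 bases shared with the OGT site was present in the 3′ UTR of 8 tested genes, of which SLC35D1 was one, and 4 of the 8 (50%) were called lower with siOGT1. The share was 28.6% of the 1016 genes with any site and 35.5% of 619 at 8 bases or more. It was 40.5% of 274 at 9, 45.1% of 113 at 10, 42.9% of 35 at 11 and 40% of 15 at 12. Each of these sets contains the next. The median log2 fold change at 13 bases was -0.21 with siOGT1 and -0.09 with siOGT2. For the 1016 genes it was -0.04 and 0.04. No source used here gives the siRNA sequences, and whether an siRNA bound these mRNAs was not tested.

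**Figure D5:**
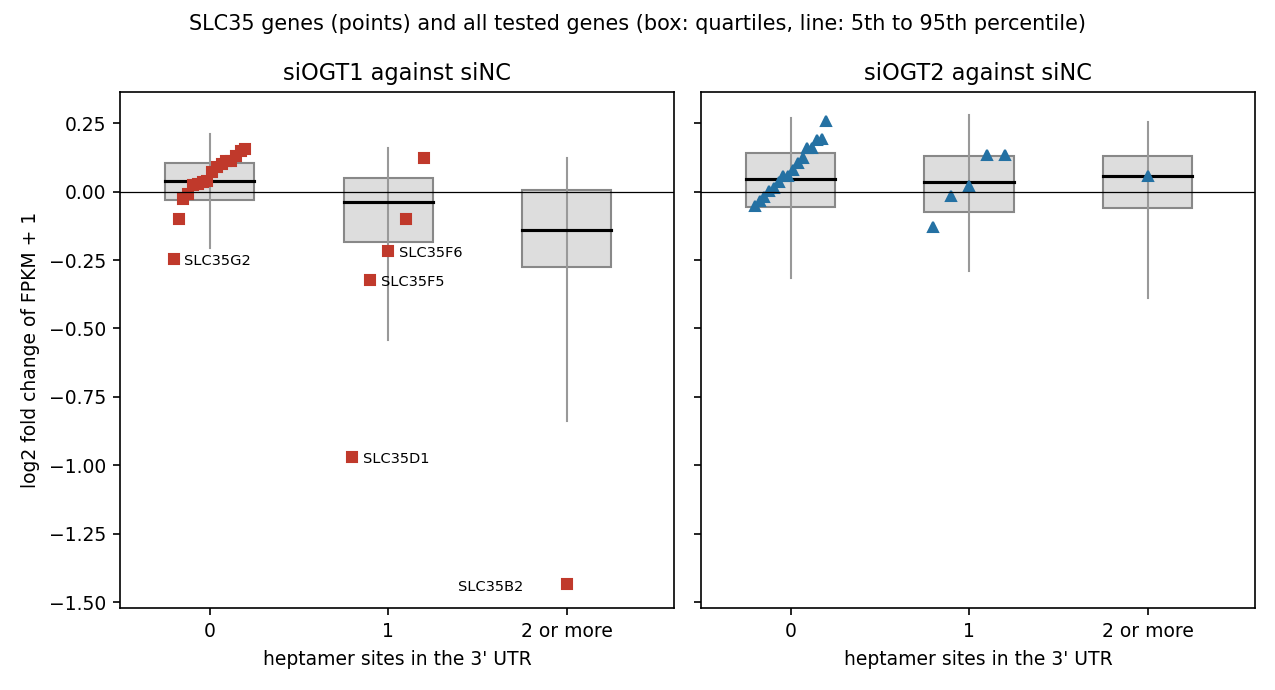
Log2 fold change of FPKM + 1 against siNC (vertical) by the number of heptamer sites in the 3′ UTR, with siOGT1 (left) and siOGT2 (right): points are the 22 tested SLC35 genes, boxes the quartiles of all tested genes, black lines their medians and thin lines their 5th to 95th percentile. The horizontal spread of points within a class only separates them. The median of all genes is -0.04 with 1 site and -0.14 with at least 2 sites with siOGT1, and is 0.04 and 0.06 with siOGT2.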

How the data were processed

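The authors deposited 1 table of FPKM values (fragment counts scaled to gene length and library size), 1 column per library. The submitters' processing notes name cutadapt 1.15, HISAT2 and GRCh38. The counting program, its annotation and its strand setting: not given in the sources used here. Symbols were found for 20011 of 20036 identifiers. Whole reads were recovered from the FPKM steps, within 0.01 reads, for 100.0% of the 17114 genes above 0, and used for depth and 1 alternative test. Log2(FPKM + 1) of the 10547 genes with a mean of at least 1 FPKM entered a single fit with 3 group means (limma 3.58.1, eBayes with trend, R 4.3.3, 3 residual degrees of freedom). The code was first run on simulated counts with known changes. Their spread was set low and equal for all genes, so that run does not measure error rates in these libraries. The added 1 shrinks the fold changes of low genes. Gene positions, 3′ UTRs and sequences are from GENCODE release 29, using for each gene the basic transcript with the longest 3′ UTR. Figures used matplotlib 3.10.9. Members called in any comparison, the 5 most abundant members, OGT, OGA and up to 4 genes of each glycosylation list (smallest p for the mean of both siRNAs) were named by rule. The members, lists and heptamer were chosen with earlier results of these data known. Alternatives changed the pseudocount, filter, scaling, variance model, replicate block, libraries fitted and test.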

Additional observations from a re-analysis of the deposited data

Results flagged for a closer look

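The effects of the siRNAs differed for 5 SLC35 genes by limma's direct test of siOGT1 against siOGT2, where 16.6% of all tested genes were called in either direction. The difference in log2 fold change, siOGT1 minus siOGT2, was -1.49 for SLC35B2, -0.989 for SLC35D1, -0.456 for SLC35F5, -0.229 for SLC35G2 and -0.198 for SLC35F6. All 5 held the heptamer GCTCTTA in their mRNA, which was chosen because earlier results of these libraries pointed to it. That count is a description only, and the part of the heptamer in the difference was not tested. OGT itself differed by -0.11 between the siRNAs and was not called (adjusted p = 0.123).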

How the results depend on the processing

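The 5 falls with siOGT1 were recalculated under 17 alternative settings. SLC35B2 and SLC35D1 were called in all of them, with log2 fold changes from -1.57 to -1.09 and from -1.12 to -0.64, as were SLC35F5 and SLC35G2, and SLC35F6 in 16. No called value changed sign. The number of members called with siOGT1 was 5 in every fit that left out 1 library, but without siNC replicate 2 they were 4 lower and 1 higher, with SLC35F6 lost (adjusted p = 0.0526) and SLC35A1 gained (adjusted p = 0.0462). With siOGT2 it was 5, and became 3 with no filter on low values and 3 under the trimmed mean of log ratios, and ranged from 1 to 5 when 1 library was left out (1 without siOGT2 replicate 1 or siNC replicate 2, 2 without siOGT2 replicate 2 or siNC replicate 1). For the mean of both siRNAs it was 8, and became 5 with no filter and 0 with both siRNAs as 1 group, with a range of 3 to 6 without single libraries (3 without either siNC library, 4 without siOGT2 replicate 1, 5 without siOGT1 replicate 2 or siOGT2 replicate 2). Between the siRNAs it was 5, with a range of 3 to 5 (3 without siOGT2 replicate 2). With both siRNAs in the same direction it was 0, and 1 with voom on recovered reads (SLC35E1, higher), which called 7 members with siOGT1 and 7 with siOGT2. Of the 10547 tested genes voom called 2550 with siOGT1 and 4226 with siOGT2, beside 1857 and 3740 without it. The cause was not tested. Libraries with the same number did not deviate together (correlations -0.02, -0.03 and 0.05 between groups), and with the replicate number as a block 5 members were called with siOGT1, 4 with siOGT2, 8 for the mean and 5 between the siRNAs. With the block SLC35E4 was lost with siOGT2 (adjusted p = 0.0538), and the mean had 4 higher and 4 lower, with SLC35F5 lost (adjusted p = 0.0624) and SLC35F3 gained. The lowest tested members by reads, SLC35F3 and SLC35A1, had 116 to 169 reads per library. The scalings of the glycosylation lists were chosen after seeing the data.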
